A study of Homo sapiens with 4 samples.

Results

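The genes of the cytosolic ribosomal proteins, the protein parts of the ribosomes that make most cellular proteins, were followed in SUM149 cells treated with Ricolinostat. They were taken by symbol from the annotated array table, as RPL or RPS followed by a number and at most the endings A, L, X or L1, together with RPLP0, RPLP1 and RPLP2, without RPS6K kinases, RPS4Y genes and pseudogenes. The rule gave 82 of 34755 genes, of which 45 belong to the large subunit (3 of them to its stalk), 30 to the small subunit and 7 are paralogs of core members. RPL10 and RPSA were not analysed here, and genes that encode ribosomal proteins under other names, such as FAU and GNB2L1, fall outside the rule. All 82 members were well above background in both dyes on every array.

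SUM149 is an established line from an inflammatory breast cancer, an aggressive form of the disease. Ricolinostat (ACY1215) inhibits the deacetylase HDAC6. Cells of the untreated group received no drug, and the other groups received 2.5 µM Ricolinostat for 3, 6 or 12 h. Total RNA of each was labelled with Cy5 and hybridized, 1 array per group, beside a Cy3-labelled reference on 4 Agilent arrays of 1 slide. Since each condition had a single array, conditions could not be tested against each other and no difference below has a replicate check. All 3 time points share the untreated array, so an error on that array enters each of them.

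Each value is the log2 of Cy5 over Cy3, and a change is that value at a time point minus the value in untreated cells. A change of 1 is 2-fold, and 1.5-fold corresponds to 0.58. The change in Cy5 alone, the sample's own dye after the same normalization, is given beside it. That normalization uses both dyes, so Cy5 alone is not independent of the Cy3 reference. Changes given for Cy3 are likewise values after normalization. The only measure of error was technical. Probes spotted 9 or more times differed between their own spots with a median SD of 0.11 in the change of the ratio at 3 h, 0.11 at 6 h and 0.10 at 12 h (297 probes). RPL30, the member with 10 spots per array, had SDs of 0.077, 0.083 and 0.074. This spread covers neither labelling nor culture.

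Facts of the arrays touch these genes in 3 ways. First, 4.74% of spots on the 3 h array and 3.38% on the untreated array lay in damaged areas, defined by outlier flags and the Cy3 signal, against 0.199% and 0.0082% on the 6 h and 12 h arrays. The damage covered 6 members at 3 h and 1 (RPL31) in untreated cells. Second, the Cy3 reference went against its label, which names a mixture of the SUM149 samples. Of 5 fibroblast markers, 4 were brighter in Cy3 than in Cy5 on every array, as were 2 of 3 leukocyte markers and 2 of 8 epithelial markers (KRT8 and KRT18). LUM, for example, read 11.4 to 11.5 in Cy3 against 5.74 to 5.98 in Cy5 on the log2 scale, whereas KRT14 read 8.44 to 8.62 against 12.9 to 13.4. Ratios were therefore read only as changes from untreated cells. In Cy5, all 8 epithelial markers were well above background on every array, with a median log2 signal of 12.5 in untreated cells. There 3 of 5 fibroblast markers and 3 of 3 leukocyte markers also passed the background test, with medians of 7.16 and 7.47, and COL3A1 passed it on no array. Finally, 78 of the 82 members were among the brightest 10% of genes, the end of the intensity range where normalization acts most.

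Ribosomal proteins are mostly made in equimolar amounts, and their mRNAs are among the most abundant of any dividing cell. Most of these mRNAs begin with a C followed by a run of pyrimidines, the terminal oligopyrimidine or TOP tract, through which mTOR signalling and the binding protein LARP1 control their translation and stability. The paralogs are encoded by separate genes and often replace their partner in particular tissues or act in ribosome assembly.

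The start sites showed how far the members share this feature. In the RefSeq promoter table (GRCh38.p14), which matched 65 members, 42 (64.6%) had a C at the annotated start followed by at least 4 further C or T letters on the coding strand, against 4.07% of 35116 promoters and 6 of 85 mitochondrial ribosomal proteins (7.06%). Allowing the tract to begin up to 10 bases to either side of the annotated start, 81.5% of the members and 32.5% of all promoters held one. The tract stood at the start of 41 of 60 core members and of 1 of 5 paralogs, RPL22L1. The windows below run 5′ to 3′ from 10 bases before the start through the first 20 transcribed bases, with the tract in capitals. RPL18 and RPS12 are shown from among the 4 members with high ratios at 3 h, all of them read from damaged spots. RPL15, also among these, had no tract within 10 bases of its start and is not shown. RPLP0 and RPS6 stand as typical members, and RPL27A, RPL22L1 and RPL7L1 as the members that were low at 12 h. RPL22, RPS27, RPS27L, RPL26 and RPL26L1 set paralogs beside their partners.
RPLP0 (chr12:120201092-120201121, minus strand): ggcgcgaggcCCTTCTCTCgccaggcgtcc
RPS6 (chr9:19380217-19380246, minus strand): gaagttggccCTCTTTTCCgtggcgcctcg
RPL18 (chr19:48619159-48619188, minus strand): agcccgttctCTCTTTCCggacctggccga
RPS12 (chr6:132814559-132814588, plus strand): cggatgaggcCTCTTTCCCTgccgccgccg
RPL27A (chr11:8682782-8682811, plus strand): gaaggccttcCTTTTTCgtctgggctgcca
RPL22 (chr1:6199576-6199605, minus strand): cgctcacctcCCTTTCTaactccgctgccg
RPL22L1 (chr3:170870176-170870205, minus strand): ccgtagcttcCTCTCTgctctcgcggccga
RPL7L1 (chr6:42879606-42879635, plus strand): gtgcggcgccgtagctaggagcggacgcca
RPS27 (chr1:153990752-153990781, plus strand): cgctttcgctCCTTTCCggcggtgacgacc
RPS27L (chr15:63157458-63157487, minus strand): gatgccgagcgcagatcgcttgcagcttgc
RPL26 (chr17:8383174-8383203, minus strand): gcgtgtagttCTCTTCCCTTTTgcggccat
RPL26L1 (chr5:172958719-172958748, plus strand): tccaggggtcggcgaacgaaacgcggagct

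With loess, the ribosomal protein genes as a group had median changes near 0 over 12 h of Ricolinostat. These were close to those of the other genes of the brightest 10%, a set not matched to the members in brightness. Loess removes any difference between the dyes that varies with brightness, and whether it came from dye or RNA was not tested. With array medians in place of loess, the members were at -0.28 at 6 h and -0.48 at 12 h. With loess the median change of the 81 members measured on every array was 0.027 at 3 h, 0.024 at 6 h and 0.041 at 12 h. The median of all genes was 0.0075, 0.017 and 0.015, and that of the other genes of the brightest 10% 0.026, 0.033 and 0.050. In Cy5 alone the members' medians were 0.042, -0.0024 and 0.0042. In RNA from whole cultures, fewer cells with an mRNA and less of it per cell cannot be told apart.

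Few members passed 1.5-fold. In the ratio, 4 members were at least 1.5-fold higher at 3 h and 0 lower, while 6.93% of all genes were higher and 1.96% lower. At 6 h, 0 were higher and 1 lower, against 9.47% and 4.38% of all genes. At 12 h, 0 were higher and 3 lower, against 8.16% and 5.07%. In Cy5 alone, 0 members were higher at any time, where 5.59%, 8.7% and 7.37% of all genes were at 3, 6 and 12 h. By the same measure 5, 2 and 3 members were lower, beside 4.17%, 5.68% and 6.54% of all genes. At 2-fold, only RPL18 was higher in the ratio, at 3 h, where 1.71% of all genes were.

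**Figure D1:**
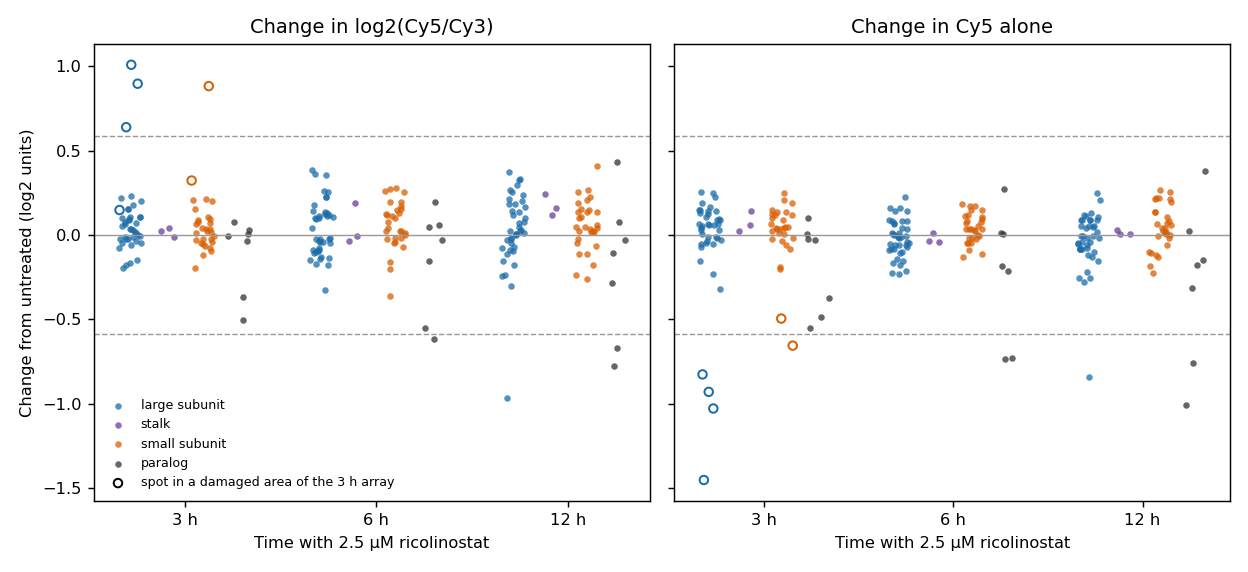
Each point is a ribosomal protein gene, with its change from untreated cells on the vertical axis (log2 units) and time with 2.5 µM Ricolinostat on the horizontal axis, for log2(Cy5/Cy3) on the left and Cy5 alone on the right; dashed lines mark 1.5-fold and open circles the spots in a damaged area of the 3 h array. The 4 members above the line at 3 h are open circles, and at 12 h 2 of the 3 members below it are paralogs.

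The members also stayed close to each other. The interquartile range of their changes was 0.13 at 3 h, 0.19 at 6 h and 0.23 at 12 h, against 0.29, 0.38 and 0.45 for the other genes of the brightest 10%. For 14 elongation factors and other TOP mRNAs it was 0.26, 0.16 and 0.17, so narrower than for the members at 6 and 12 h. For the 74 core members at 12 h it was 0.21, and it lay near 0.2 under every normalization tried, from 0.19 with the processed signals of Agilent's Feature Extraction to 0.24 in the authors' table. The number of members whose change did not exceed the technical SD was 55 of 81 at 3 h, 40 at 6 h and 34 at 12 h, where 37.0%, 34.0% and 32.4% of all genes did not. In the ratio, 19 of 81 members (23.5%) were below untreated cells at all 3 times and 36 (44.4%) above, where 31.6% and 36.1% of all genes were.

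The subunits gave like values. The large subunit, stalk included, had median changes of 0.037, -0.010 and 0.038 in the ratio at 3, 6 and 12 h (44 members), and the small subunit had 0.029, 0.057 and 0.048 (30 members). At 12 h 15 of 44 large-subunit genes and 8 of 30 small-subunit genes were below untreated cells, where 47.4% of all genes were. With array medians in place of loess, both subunits were lower at 12 h, with medians of -0.49 each. With loess the largest falls in value within the subunits at 12 h, RPL27A aside, were RPL6 at -0.30 and RPS13 at -0.26, and RPL11 was among the largest rises in value, at 0.37.

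The stalk proteins recruit translation factors to the large subunit. For RPLP0, log2(Cy5/Cy3) was -0.35 in untreated cells, -0.31 at 3 h, -0.35 at 6 h and -0.23 at 12 h. RPLP1 read -0.75, -0.72, -0.56 and -0.51, and RPLP2 -0.49, -0.50, -0.53 and -0.33. All 3 were highest at 12 h, by 0.12, 0.24 and 0.16. In Cy5 alone their changes at 12 h were only 0.029, 0.0042 and 0.0033, and normalized Cy3 changed by -0.089, -0.24 and -0.16. From untreated cells to 12 h, raw Cy5 went from 102999 to 74180 units (RPLP0), 125501 to 92411 (RPLP1) and 95117 to 68052 (RPLP2). Raw Cy3 went from 69212 to 71083, 108853 to 106318 and 70785 to 70056, so the directions in each dye depended on the normalization. When array medians were used in place of loess, all 3 stood below untreated cells at 12 h, with a median of -0.40.

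RPL5 and RPL11 join a small ribosomal RNA in the large subunit and, when free of ribosomes, bind the p53 regulator MDM2. RPL11 read -0.20 in untreated cells and then -0.090, 0.16 and 0.18, so that it lay 0.11, 0.36 and 0.37 higher. Its change in Cy5 alone was smaller, at 0.044, 0.16 and 0.088. RPL5 read 0.070, 0.22, 0.29 and 0.25, but its spot at 3 h was damaged, and its 3 other probes changed by -0.015 to -0.091 at 12 h. RPS6, the small-subunit protein that S6 kinases phosphorylate, read 1.85, 1.73, 1.78 and 1.67. In Cy5 alone the same probe was higher, by 0.042, 0.081 and 0.22, while Cy3 was higher by 0.16, 0.16 and 0.40. Its other probe (A_33_P3367795) lay lower at each time, with ratio changes of -0.24, -0.34 and -0.69.

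The members that passed 1.5-fold at 3 h all came from damaged spots. RPL18 read -0.25, 0.75, -0.030 and 0.041 at 0, 3, 6 and 12 h. RPL15 read -0.39, 0.51, -0.28 and -0.32. RPS12 read -0.35, 0.53, -0.15 and -0.21, and RPL22 read -0.50, 0.14, -0.67 and -0.74. In each the 3 h array alone stood out. The changes at 3 h were 1.01, 0.90, 0.88 and 0.64 in the ratio, whereas in Cy5 alone the same genes changed by -0.83, -0.93, -0.66 and -1.45. The Cy3 reference at those spots was lower still, with changes of -1.83, -1.83, -1.54 and -2.09, although the reference RNA is labelled as the same on each array. Damaged areas were defined in part by a deviating Cy3 signal, so such Cy3 changes are partly built into the definition. RPL5 was the other member past 1.5-fold in Cy5 alone at 3 h, at -1.03, with -1.18 in Cy3, and RPS25, named after its values were seen, had the remaining damaged spot, at -0.50 and -0.82. Where such a gene had a probe outside the damage, that probe did not show these values. The other probes of RPL15 and RPL22 changed by 0.18 and -0.058 at 3 h, and those of RPL5 by -0.080 to 0.098. RPL18, RPS12 and RPS25 have no other probe. With damaged areas left out, which drops the 6 spots themselves, 0 of the remaining 75 members passed 1.5-fold in either direction at 3 h, where 5.38% of all genes were still higher and 1.82% lower.

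**Figure D2:**
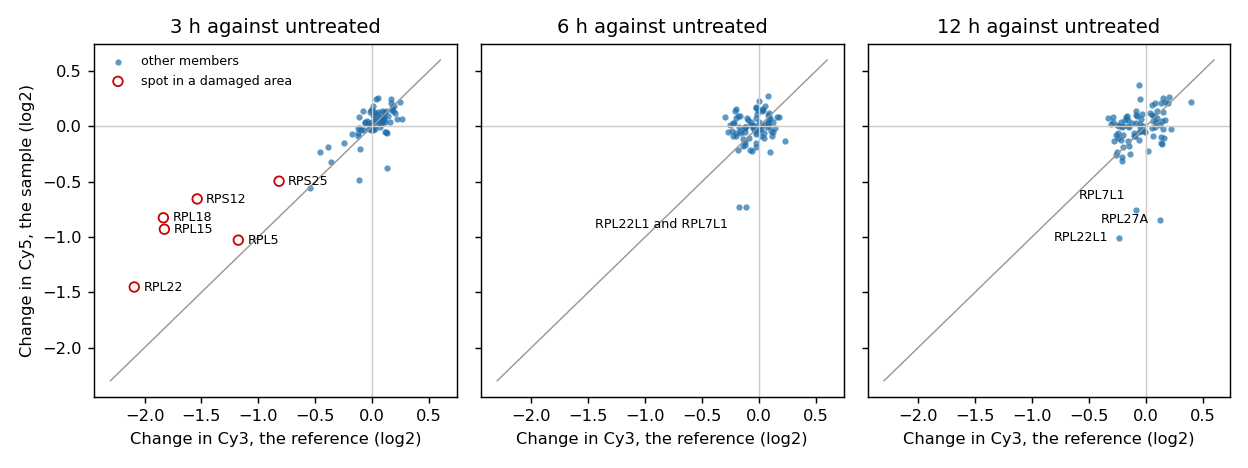
Each point is a ribosomal protein gene at 3, 6 or 12 h, with the line of equal change. The vertical axis is the change in Cy5 (the sample, log2) and the horizontal axis the change in Cy3 (the reference, log2). Open circles are spots in a damaged area, which the Cy3 signal helped to define. At 3 h the 6 damaged members lay far to the left, from -0.82 (RPS25) to -2.09 (RPL22) in Cy3, while RPL22L1, RPL7L1 and RPL27A, low in Cy5 at 12 h, had Cy3 changes of -0.23, -0.084 and 0.13.

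At 12 h 2 of the 3 members past 1.5-fold were paralogs. RPL22L1, a paralog that can take the place of RPL22 in the ribosome, read -1.03 in untreated cells and -1.54, -1.58 and -1.81 at 3, 6 and 12 h. Each treated array was below the untreated one, with changes of -0.51, -0.55 and -0.78 in the ratio and of -0.37, -0.73 and -1.01 in Cy5 alone. Its raw Cy5 signal was 21487 units, then 16660, 10417 and 7715.5. Over 9 alternatives to the processing its change at 12 h ranged from -1.29 to -0.78. RPL22 itself, on its undamaged arrays, changed by -0.17 at 6 h and -0.24 at 12 h, and the difference between the pair at 12 h was -0.53, between -0.66 and -0.50 under the alternatives.

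RPL7L1, which acts in assembly of the large subunit, read 0.97, 0.60, 0.35 and 0.29. It was lower on every treated array, with changes of -0.37, -0.62 and -0.67 in the ratio and of -0.48, -0.73 and -0.76 in Cy5 alone. The alternatives gave -1.04 to -0.67 at 12 h. RPL7, its closest core member, went the other way with loess, at 0.092, 0.26 and 0.33, but was at -0.22 at 12 h with median centring. The pair differed by -1.0 at 12 h, and by -1.0 to -0.82 under the alternatives. Both paralogs have 1 probe, so no other probe bears on them. As these probes were undamaged, the alternatives that take the median over probes, leave out damaged areas or leave out normalization between arrays could not change their ratios.

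RPS27L, a target of p53 and the partner of RPS27, had the highest change of all members at 12 h. It read -2.06 in untreated cells and -1.98, -1.87 and -1.63 after treatment, that is 0.079, 0.20 and 0.43 higher, short of 1.5-fold. In Cy5 alone it was 0.098, 0.27 and 0.38 higher. RPS27L was the only 1 of 81 members above untreated cells at 12 h under the main processing and all 9 alternatives, with a lowest value of 0.029, while 25 members were below untreated cells under all of them. Of all genes, 27.2% were above and 41.2% below in this way, and the alternatives include median and spike-in centring, which moved nearly all members down together. RPS27L has 1 probe, with no damage. The median over probes, leaving out damaged areas and leaving out Aquantile, the normalization between arrays, thus could not change its ratio. RPS27 changed by 0.11, 0.20 and 0.19.

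The other paralogs stayed short of 1.5-fold. RPL26L1 changed by 0.027, 0.057 and 0.077, beside 0.099, 0.10 and 0.14 for RPL26. RPL39L, known from testis, changed by -0.039, 0.044 and -0.10, and by -0.32 at 12 h in Cy5 alone, beside 0.011, 0.14 and 0.12 for RPL39. RPL3L, a paralog of RPL3 found in muscle, changed by 0.0029, -0.031 and -0.029, with a raw Cy5 signal of 77 units in untreated cells, and RPL3 by 0.065, 0.14 and 0.18. RPL10L, from testis, changed by -0.0045, -0.15 and -0.29 in the ratio and by -0.55, -0.18 and -0.15 in Cy5 alone, with a Cy3 change of -0.55 at 3 h. RPL36AL, which the symbol rule leaves out, changed by 0.098, 0.28 and 0.24, beside 0.20, 0.38 and 0.33 for RPL36A, its near-identical partner, from which a probe may not tell it apart.

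**Figure D3:**
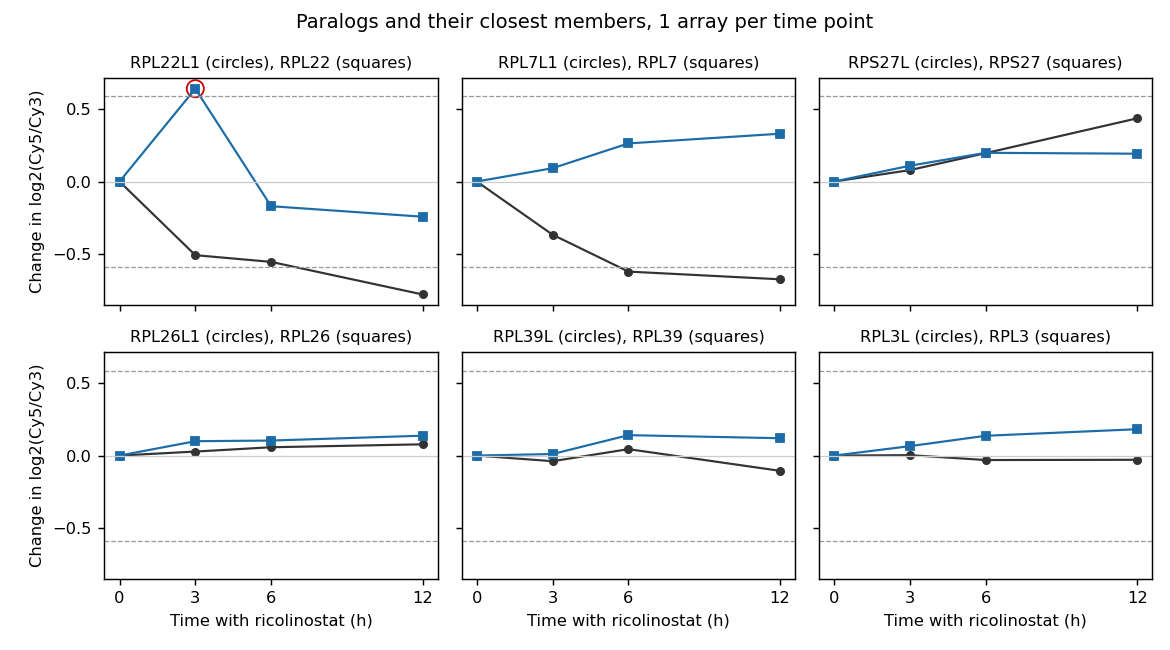
Change in log2(Cy5/Cy3) from untreated cells (vertical axis, log2 units) against time with Ricolinostat (horizontal axis, h) for 6 paralogs (circles) and their closest core members (squares), 1 array per point; dashed lines mark 1.5-fold and the red ring a damaged spot (RPL22 at 3 h). RPL22L1 and RPL7L1 reached -0.78 and -0.67 at 12 h, and RPS27L reached 0.43, while the other 3 paralogs stayed within 1.5-fold.

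RPL27A was the remaining member past 1.5-fold at 12 h. It read 0.55, 0.35, 0.22 and -0.42, and its changes were -0.20, -0.33 and -0.97 in the ratio and 0.065, -0.23 and -0.84 in Cy5 alone. Its only probe was dim for a ribosomal protein gene. The raw Cy5 signal was 141.5, 156, 104 and 58 units over a median background of 24, and the size of its change moved with the processing, to -1.65 with a normexp offset of 1 and -2.02 with spike-in centring.

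Among members outside the paralogs, RPL11, RPL7, RPL36A and RPL18 (0.30 at 12 h) were among the highest changes at 12 h with loess. In Cy5 alone these 4 were higher at 12 h by 0.088, 0.020, 0.038 and 0.25. All 4 lay below untreated cells at 12 h with median centring, between -0.18 (RPL11) and -0.25 (RPL36A). The lowest, next to RPL27A and the paralogs, were RPL6 (0.23, -0.13 and -0.30) and RPS13 (-0.19, -0.36 and -0.26). Their ratios were below untreated cells at 12 h under all 9 alternatives. In Cy5 alone they changed by only -0.16 and -0.10 at 12 h, with Cy3 higher by 0.14 and 0.16.

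Probes of a gene did not always give the same value. In the 43 members with 2 or more probes well above background, probes differed by a median of 0.20 at 3 h, 0.17 at 6 h and 0.25 at 12 h. The widest gap at 12 h was in RPS26, named here for that gap, where the brightest probe changed by 0.15 and another by -0.80. In RPS14, named for the widest gap at 6 h, the probes changed by 0.28 and -0.49. Over all 158 probes of members, 0 were at least 1.5-fold higher and 5 lower at 12 h, with a median of 0.00054. Of all genes, with 1 probe each, 8.16% were higher and 5.07% lower. RPL31, whose brightest probe was lost to damage in untreated cells, changed by -0.093, 0.020 and -0.17 on its other probe.

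The members' direction depended on how dye intensity was handled. The raw median Cy5 signal of the members was 80762 units in untreated cells, 77774.5 at 3 h, 64024.5 at 6 h and 58729.5 at 12 h, while their Cy3 signal was 54258, 52848, 52124 and 56942. When each array was centred on its median without loess, the members' median change was 0.055 at 3 h, -0.28 at 6 h and -0.48 at 12 h, and 80 of 81 were below untreated cells at 12 h, 23 of them at least 1.5-fold, beside 70.9% and 13.9% of all genes. The same setting moved all genes to -0.084 at 6 h and -0.16 at 12 h, and the other genes of the brightest 10% to -0.21 and -0.38. Relative to all genes the members were thus at -0.20 and -0.33, and relative to the brightest 10% at -0.066 and -0.10. Centring Cy5 alone in this way gave 0.039, -0.30 and -0.39, with 7 members at least 1.5-fold lower at 12 h, beside 12.6% of all genes.

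Control probes for spike-in transcripts, which carry names starting with E1A, gave another base that rests on no gene of the cells. This base was chosen after the data had been seen. The sources do not say whether a spike-in mix was added, which mix, or whether its amount was equal. The 4 such probes with a net signal of at least 50 units in both dyes on all arrays changed by a median of 0.35 at 3 h (range 0.21 to 0.42), -0.0091 at 6 h (-0.11 to 0.11) and -0.30 at 12 h (-0.47 to -0.21) in the unnormalized ratio. They were dim, at 93 to 422 net units of Cy5 in untreated cells. Against them, the members' median change was -0.28, -0.31 and -0.25 at 3, 6 and 12 h, with 77, 78 and 76 of 81 members below untreated cells, beside 64.5%, 62.8% and 57.0% of all genes. All genes were then at -0.17, -0.17 and -0.082, and the brightest 10% at -0.23, -0.24 and -0.15. In the authors' normalized table the members' medians were 0.0026, -0.088 and -0.081.

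Across these settings at 12 h the members' median ran from -0.48 to 0.041, whereas its distance from the other genes of the brightest 10% ran from -0.10 to -0.0094. The direction of the group thus changed with the normalization, and its distance from the other genes of the brightest 10% changed less. That set was not matched to the members in brightness, and whether the distance reflects brightness was not tested.

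**Figure D4:**
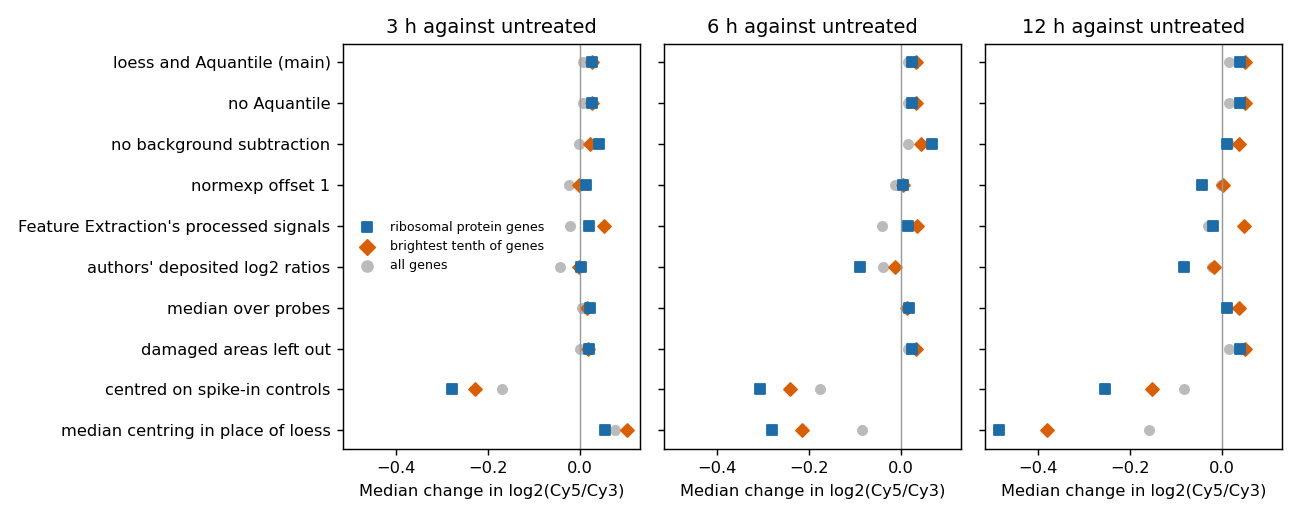
Median change in log2(Cy5/Cy3) from untreated cells (horizontal axis, log2 units) under each way of processing (rows) at 3, 6 and 12 h, for the ribosomal protein genes (squares), the other genes of the brightest 10% (diamonds) and all genes (circles). At 12 h the members move from 0.041 with loess to -0.48 with median centring, and the brightest 10% moves with them, from 0.050 to -0.38.

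Related lists were read on the same scale. Ribosome biogenesis factors, which process ribosomal RNA and assemble subunits, were lower than the ribosomal proteins at each time, with medians of -0.15, -0.29 and -0.35 (43 of 46 genes measured), and 37 of 43 were below untreated cells at 12 h (47.4% of all genes). At 12 h 9 of the 43 were at least 1.5-fold lower, beside 5.07% of all genes, and UTP20, part of the complex that matures small-subunit RNA, was lowest at -1.42. The list's median at 12 h stayed negative under every setting, from -0.71 with median centring to the -0.35 given here, and in Cy5 alone it was -0.41. At 3 h it was only -0.037 with median centring.

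The mitochondrial ribosomal proteins, which the cytosolic ribosomes themselves translate, had medians of -0.043, -0.090 and -0.13, with 53 of 75 below untreated cells at 12 h, again beside 47.4% of all genes, and MRPL54 lowest at -1.35. Median centring turned their value at 3 h to 0.059. RNA polymerase I and its factors, which transcribe ribosomal RNA genes, were at 0.052, -0.012 and -0.26 (14 genes), with UBTF lowest at -0.77. Their 3 h median ran from -0.15 with spike-in centring to 0.16 with median centring. Initiation factors were at -0.0039, -0.092 and -0.16 (29 genes), with EIF3A lowest at -0.75. Elongation factors and other TOP mRNAs, the list closest to the members in mRNA type, were at -0.016, 0.018 and -0.050 (14 genes). At 12 h EIF4B was lowest at -0.46, and 0 of the 14 passed 1.5-fold, beside 8.16% of all genes higher and 5.07% lower. Their 6 h median ran from -0.31 with spike-in centring to 0.051 without background subtraction. The 8 regulators of TOP translation had a median of -0.041 at 12 h. Of these 8, 1 was at least 1.5-fold lower, beside 5.07% of all genes. It was RPTOR, the scaffold of mTOR complex 1, at -0.83. EIF4EBP2, a repressor of cap-dependent initiation, was highest at 0.48, 0.70 and 0.41. Of ribosomal proteins outside the rule, FAU was at 0.088 and GNB2L1 at 0.029 at 12 h.

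**Figure D5:**
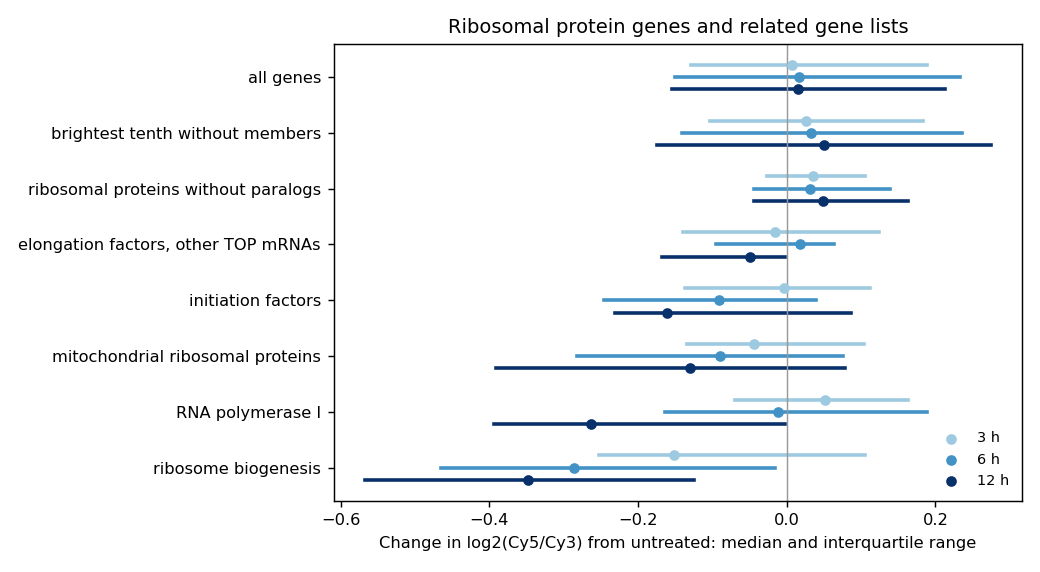
Change in log2(Cy5/Cy3) from untreated cells (horizontal axis, log2 units) at 3, 6 and 12 h for ribosomal protein genes without paralogs and related gene lists (rows), with points for the median and bars for the interquartile range over genes. The ribosomal proteins have a narrower bar than the other lists, the elongation factors at 6 and 12 h aside, and a median of 0.048 at 12 h, against -0.35 for ribosome biogenesis factors.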

How the data were processed

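RNA of untreated SUM149 cells and of cells given Ricolinostat for 3, 6 or 12 h was read on 4 2-colour arrays. The authors deposited Agilent Feature Extraction 12.0.1.1 files with spot and background intensity, log10 ratios and flags, and a table of normalized log2 ratios with gene symbols, whose normalization is not given in the sources used here. Per array, deposited log2 ratios correlated at 0.995 or more with those made here by normexp with offset 1.

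Median intensities were background-corrected (normexp, offset 50), control spots left out, flagged outlier spots set aside (0 spots were saturated), and arrays normalized by loess and Aquantile in limma 3.58.1 (R 4.3.3), tested on simulated data. Of several probes, the one brightest in Cy3 on average stood for its gene. Other steps used Python 3.11.15 and pandas 2.3.3. Start-site windows came from RefSeq. Damaged areas were blocks of 13 by 7 spots of which 10% or more were defective (outlier flags, or Cy3 over 2-fold from the 4-array median). A gene entered a comparison when well above background in both dyes of both arrays. Named were the 6 highest and 6 lowest members at 12 h, every member past 1.5-fold, paralogs with their partners, RPLP0, RPLP1, RPLP2, RPL5, RPL11 and RPS6, and the most changed gene of a list. Some genes that this rule or a list names are not reported here. Members and lists were chosen with earlier results of these data known. The number of arrays limits the precision.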

Additional observations from a re-analysis of the deposited data

How the results depend on the processing

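Tests and the omission of replicates need more than the 1 array each group has. No paired analysis was possible because the groups hold 1 array each. In all, 598 values were recomputed, of which 459 stayed within the technical SD or, for counts, within 1.5 times. The absence of Aquantile left every ratio as it was by construction. The same holds for members without the filter on dim probes, since all were well above background. It also holds for genes with 1 probe under the median over probes, and for undamaged spots when damaged areas were left out. The 459 include such values, which could not change. Saturation did not limit the signals.

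The medians of the members moved in the ratio with median centring, to -0.28 at 6 h and -0.48 at 12 h, with spike-in centring, chosen after seeing the data, to -0.28, -0.31 and -0.25 at 3, 6 and 12 h, and with the authors' table at 12 h, to -0.081. In Cy5 alone they moved with median centring to -0.30 at 6 h and -0.39 at 12 h, and with spike-in centring to -0.30, -0.17 and -0.13.

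The number of members past the threshold is given here with the share of all genes under the same setting in brackets. The 4 members at least 1.5-fold higher at 3 h in the ratio were 0 with Feature Extraction's signals (10.4%). They were 2 with the median over probes (5.8%), 1 at a 2-fold threshold (1.71%), 0 without damaged areas (5.38%) and 1 with spike-in centring (11.4%). The members at least 1.5-fold lower in the ratio were 3 at 3 h with spike-in centring (15.1%). At 6 h they were 2 with a normexp offset of 1 (9.04%) or the authors' table (8.35%). With median centring they were 3 at 6 h (8.68%), and with spike-in centring 4 (19.2%). At 2-fold they were 0 at 6 h (0.93%) and at 12 h (1.11%). With median centring they were 23 at 12 h (13.9%). In Cy5 alone, those lower at 3 h were 3 with the median over probes (3.55%) and 2 at 2-fold (1.18%). Without damaged areas they were 0 (2.46%), and with spike-in centring 10 (20.6%). At 6 h they were 0 at 2-fold (1.18%). At 12 h they were 7 with median centring (12.6%) and 1 at 2-fold (1.53%). The ratio of RPL22 at 3 h turned to -0.028 with Feature Extraction's signals, from a damaged spot. Apart from the settings that define the damaged areas and the threshold, the cause was not tested.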
